A study of Mus musculus with 8 samples.

Results

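The leukocyte integrins are the adhesion receptors with which blood cells bind other cells and matrix. Here 10 integrin genes were followed by their symbols, of 24421 gene symbols in the deposited count table: the β2 group (Itgam, Itgax, Itgal and Itgb2), the α4, α5, β1 and β7 group (Itga4, Itga5, Itgb1 and Itgb7), and the αv and β5 pair (Itgav and Itgb5). They are named by symbol, with no threshold on a measured value. All 10 passed the filter on low counts and were tested.

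RNA was sequenced from 8 libraries of C57BL/6 mouse bone marrow cells cultured in methylcellulose to which SCF, IL-3 and GM-CSF were added. The labels of both lines name MLL-AF10, a fusion oncoprotein found in acute leukaemia that joins parts of MLL and AF10. The MAflox line is labelled as MLL-AF10 flox, and the labels name neither what is floxed in it nor a Cre. Whether MAflox cells still carried the fusion after 4-OHT is therefore not known here. The MATIP line carries MLL-AF10 with Tip60 flox/flox and Cre-ERT2, a recombinase switched on by 4-hydroxytamoxifen (4-OHT). Tip60 is the acetyltransferase encoded by Kat5. Each line was given 100 nM 4-OHT or its solvent ethanol (EtOH) for 4 days, which gives 4 groups of 2 libraries. The labels do not say whether the replicates were separate cultures or whether a line is 1 clone, so the error behind each p-value is the scatter of these libraries alone and may be technical.

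An integrin is a heterodimer of an α and a β chain, and each β chain decides which α chains can reach the cell surface. β2 pairs with αM (Mac-1), αX (p150,95) and αL (LFA-1) and is found on leukocytes. α4β1 and α5β1 bind VCAM-1 and fibronectin and hold progenitors to the marrow, while α4β7 guides cells to the gut. Integrins rest in a bent shape until talin and kindlin bind the β tail, and clustered receptors then signal through Src family and focal adhesion kinases.

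Library totals were 41101309 to 57312490 counts, and levels are given as CPM (counts scaled to a common library size with TMM factors). Kat5 stood at 41.1 and 41.2 CPM in MATIP EtOH libraries and at 8.11 and 8.32 CPM with 4-OHT, a log2 fold change of −2.32 ± 0.09 (SE). In MAflox cells it stood at 43.7 and 41.2 CPM with EtOH and at 57.5 and 62.5 CPM with 4-OHT. Marker lists showed myeloid cells in every group, and Cd3e, Cd8a, Ncr1 and Pax5 of the lymphoid list were at 0 in all 8 libraries. Markers of maturing myeloid cells moved with the treatment. The summed level of 10 neutrophil markers was 204 to 209 CPM in MAflox EtOH and 49088 to 52496 CPM in MAflox 4-OHT libraries, and 731 to 868 CPM in MATIP EtOH and 33612 to 37165 CPM in MATIP 4-OHT libraries. For 12 macrophage markers, of which C1qa was at 0 in all 4 groups, the sums were 246 to 257 and 4602 to 4742 CPM in MAflox cells and 342 to 384 and 15176 to 15817 CPM in MATIP cells. Summed dendritic cell markers were 21.4 to 24.1 and 26.0 to 27.7 CPM in MAflox cells and 9.46 to 10.4 and 111 to 121 CPM in MATIP cells, where Cd209a and Siglech were at 0. The median log2 change of the tested markers was 7.94 in MAflox and 5.94 in MATIP cells for neutrophils, 1.47 and 4.75 for macrophages (10 of 12 tested) and 1.26 and 2.63 for dendritic cells (5 of 9 tested), so the summed levels do not stand for each marker. The part of these cell types in the results below was not tested, and in bulk RNA fewer cells of a type and less RNA per cell cannot be told apart.

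In MAflox cells 8 of the 10 integrin genes passed the test with 4-OHT (edgeR quasi-likelihood, Benjamini-Hochberg adjusted p under 0.05), 4 higher and 4 lower. Of all 13722 genes tested, 65.2% passed, 33.1% higher and 32.1% lower, so these counts are read against a broad response. With library totals alone as scaling, 38.8% of the called genes in MAflox cells were higher, not 50.8%, since the median of all genes moved by −0.16 in MAflox and −0.13 in MATIP cells, and 6 members were then lower in MAflox cells. In MATIP cells 9 of 10 passed, 7 higher and 2 lower, against 76.1% of all genes, 37.5% higher and 38.6% lower. The median log2 fold change of the members was −0.09 in MAflox and 0.79 in MATIP cells, beside 0.02 and 0.00 over all tested genes. The response itself differed between the lines for 8 of 10 members, 6 with the larger value in MATIP cells and 2 with the smaller, against 61.9% of all genes, 28.3% and 33.6% in these directions. With 4-OHT, Itgam, Itgax and Itgb2 rose and Itga4 fell in both lines. Itgal rose in MAflox cells and fell in MATIP cells, and Itga5, Itgb5 and Itgb7 fell in MAflox cells and rose in MATIP cells.

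**Figure D1:**
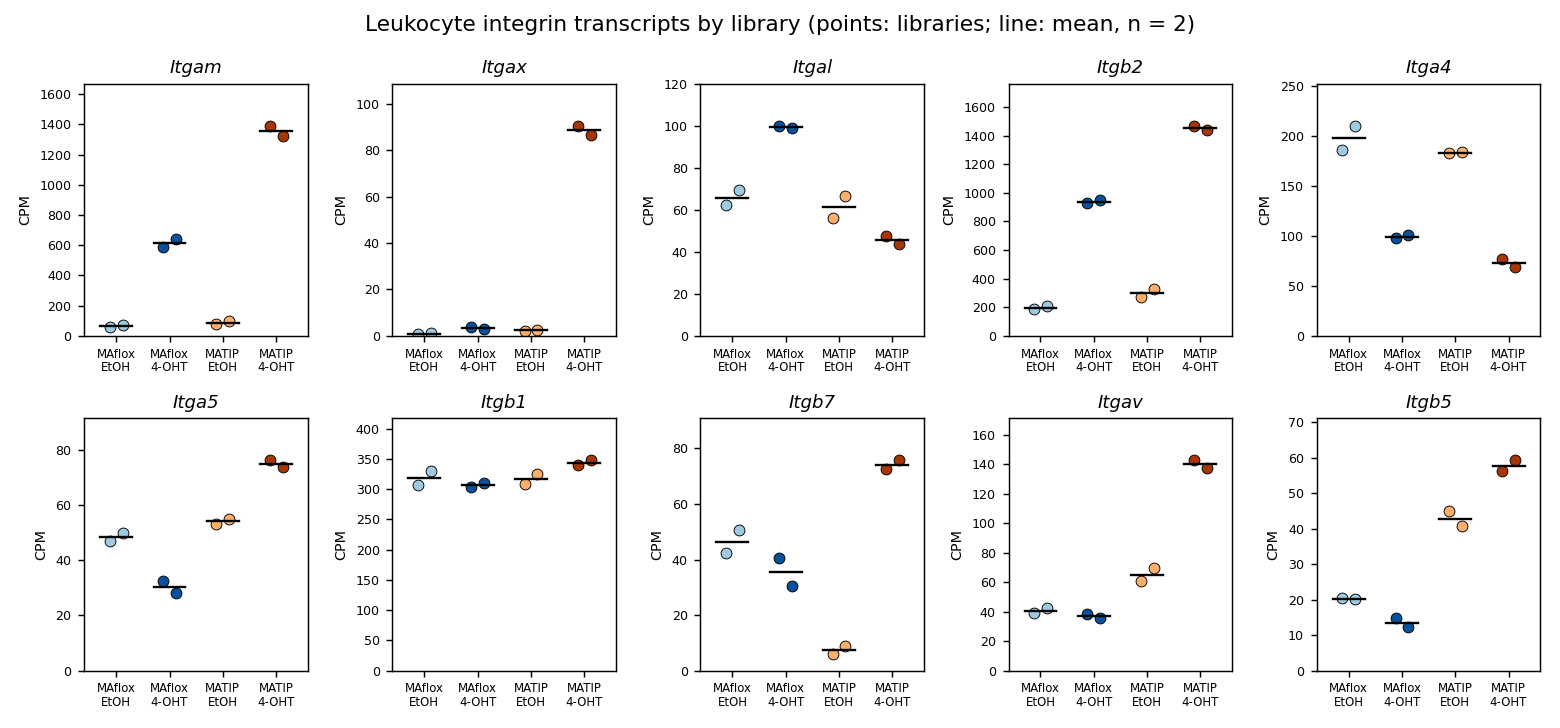
Level of each of the 10 integrin genes in CPM (y axis, a panel per gene starting at 0) in the 4 groups, with 1 point per library and a line at the group mean. As a ratio of highest to lowest, Itgax spans the widest range, from 0.817 CPM in a MAflox EtOH library to 90.5 CPM in a MATIP 4-OHT library. Itgb1 stays between 304 and 347 CPM.

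Itgam encodes αM (CD11b), the α chain of the complement receptor Mac-1 of neutrophils and macrophages. It lies on chromosome 7 from 128062640 to 128118491 on the plus strand (mm10, GENCODE M21). Itgax, the αX chain (CD11c) of macrophages and dendritic cells, follows it on the same strand from 128129547 to 128150657, and Itgal lies on the same chromosome from 127296260 to 127335138. Of the members 8 have an entry in the RefSeq promoter table (GRCm38.p6). The 250 bases before the start of 4 of them are printed here: Itgam rose most of the members in MAflox cells, Itgax rose most in MATIP cells, Itga4 fell most in both lines, and the response of Itgb7 differed most between the lines. Capitals mark GAGGAA, the purine-rich core bound by PU.1, and GGGCGG, the GC box bound by Sp1, searched on both strands, where they read TTCCTC and CCGCCC on the other strand. No match overlaps another in these windows. The windows are chr7:128062390-128062639 (plus) for Itgam, chr7:128129300-128129549 (plus) for Itgax, chr2:79255176-79255425 (plus) for Itga4 and chr15:102231936-102232185 (minus) for Itgb7.
Itgam: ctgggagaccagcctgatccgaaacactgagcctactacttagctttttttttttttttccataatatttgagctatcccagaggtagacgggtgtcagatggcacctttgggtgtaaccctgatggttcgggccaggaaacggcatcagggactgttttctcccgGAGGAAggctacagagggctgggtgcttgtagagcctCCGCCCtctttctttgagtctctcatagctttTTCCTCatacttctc
Itgax: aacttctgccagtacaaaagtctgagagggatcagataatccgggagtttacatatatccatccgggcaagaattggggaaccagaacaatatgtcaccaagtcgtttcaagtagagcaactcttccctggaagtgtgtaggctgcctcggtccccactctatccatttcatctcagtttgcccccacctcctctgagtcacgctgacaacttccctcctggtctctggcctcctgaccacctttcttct
Itga4: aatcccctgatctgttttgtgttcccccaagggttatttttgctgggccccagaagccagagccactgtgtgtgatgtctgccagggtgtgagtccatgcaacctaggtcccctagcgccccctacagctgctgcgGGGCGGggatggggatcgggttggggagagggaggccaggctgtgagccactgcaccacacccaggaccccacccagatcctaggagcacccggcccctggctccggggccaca
Itgb7: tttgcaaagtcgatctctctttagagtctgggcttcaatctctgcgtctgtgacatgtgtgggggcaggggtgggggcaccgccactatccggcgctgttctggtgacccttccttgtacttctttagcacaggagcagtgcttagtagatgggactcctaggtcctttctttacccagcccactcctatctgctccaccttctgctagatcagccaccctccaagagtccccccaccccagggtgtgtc
The Itgam window holds GAGGAA 84 and 15 bases before the start, the nearer on the other strand, and GGGCGG 47 bases before it on the other strand. The Itga4 window holds GGGCGG 114 bases before the start, and neither string occurs in the windows of Itgax and Itgb7. Of the 8 member windows, 4 hold GAGGAA and 5 hold GGGCGG, beside 23.3% and 32.7% of all 32851 promoter windows of this length. These matches describe letters only, and no binding was measured here.

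Of the β2 group, Itgam, Itgax and Itgb2 rose in both lines. Itgam stood at 59.2 and 69.0 CPM in MAflox EtOH libraries, at 590.1 and 639.8 CPM in MAflox 4-OHT, at 75.5 and 98.4 CPM in MATIP EtOH and at 1392 and 1321 CPM in MATIP 4-OHT libraries. No 2 groups overlapped, and both 4-OHT groups lay above both EtOH groups. The log2 fold change was 3.26 ± 0.10 in MAflox cells (9.59-fold; adjusted p = 1.14e-15) and 3.96 ± 0.10 in MATIP cells (15.6-fold; adjusted p = 2.8e-17). The response was larger in MATIP cells by 0.70 ± 0.13 on the log2 scale (adjusted p = 0.00011). Itgam shares 3450 exon bases with the same-strand gene model Gm49368, and how the counting split such reads is not given in the sources used here.

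Itgax had the lowest counts of the members in EtOH and the largest rise in MATIP cells. It stood at 0.817 and 1.08 CPM in MAflox EtOH, 3.93 and 3.06 CPM in MAflox 4-OHT, 2.13 and 2.68 CPM in MATIP EtOH, and 90.5 and 86.6 CPM in MATIP 4-OHT libraries. Only the MATIP 4-OHT libraries were far above the rest. The log2 fold change was 1.87 ± 0.19 in MAflox cells (3.65-fold; adjusted p = 4.58e-08) and 5.19 ± 0.13 in MATIP cells (36.4-fold; adjusted p = 1.75e-17), and these differed by 3.32 ± 0.26 (adjusted p = 2.11e-09).

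Itgb2 encodes β2 (CD18), the chain shared by all 3 α chains of the group, on chromosome 10 from 77530252 to 77565708 (plus strand). It stood at 189 and 206 CPM in MAflox EtOH, 928 and 949 CPM in MAflox 4-OHT, 275 and 330.0 CPM in MATIP EtOH, and 1469.7 and 1440.4 CPM in MATIP 4-OHT libraries. The groups did not overlap. Its log2 fold change was 2.25 ± 0.07 in MAflox (4.75-fold; adjusted p = 3.42e-15) and 2.26 ± 0.07 in MATIP cells (4.81-fold; adjusted p = 1.1e-15). The difference of these responses was 0.02 ± 0.10, with a 95% interval from −0.19 to 0.23 (adjusted p = 0.907). A true difference anywhere inside that interval is compatible with these libraries.

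Itgal encodes αL (CD11a), the α chain of LFA-1, which binds ICAM-1 and is the main β2 integrin of lymphocytes. It stood at 62.2 and 69.3 CPM in MAflox EtOH, 100.2 and 98.9 CPM in MAflox 4-OHT, 55.9 and 66.7 CPM in MATIP EtOH, and 47.8 and 43.9 CPM in MATIP 4-OHT libraries. The EtOH groups overlapped each other, while MAflox 4-OHT lay above and MATIP 4-OHT below both. It rose in MAflox cells (log2 0.60 ± 0.08, 1.51-fold; adjusted p = 1.92e-06) and fell in MATIP cells (−0.42 ± 0.08; adjusted p = 0.000109), a difference of −1.02 ± 0.11 (adjusted p = 2.49e-07).

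Levels of different genes are compared per kilobase of exon. Of the summed level of Itgam, Itgax and Itgal, Itgam held 55.5% ± 0.737 (SD, n = 2) in MAflox EtOH and 88.5% ± 0.749 in MAflox 4-OHT, and 63.6% ± 1.40 in MATIP EtOH and 91.4% ± 0.0222 in MATIP 4-OHT libraries. The share of Itgal was 43.6% and 11% in MAflox cells and 34.5% and 2.36% in MATIP cells. Itgax held 0.857% and 0.529% in MAflox and 1.85% and 6.24% in MATIP cells. The sum of the 3 α chains was 23.0 and 138 CPM per kb in MAflox cells and 27.1 and 295 CPM per kb in MATIP cells. Itgb2 exceeded this sum in every library, by 2.82-fold ± 0.0920 and 2.22-fold ± 0.0721 in MAflox EtOH and 4-OHT and by 3.66-fold ± 0.135 and 1.61-fold ± 0.0365 in MATIP EtOH and 4-OHT libraries. Of the 5024 exon bases of Itgam, 3450 are shared with Gm49368. If reads there went uncounted, the level of Itgam is too low, so the shares, the sum and the excess of Itgb2 are uncertain.

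**Figure D2:**
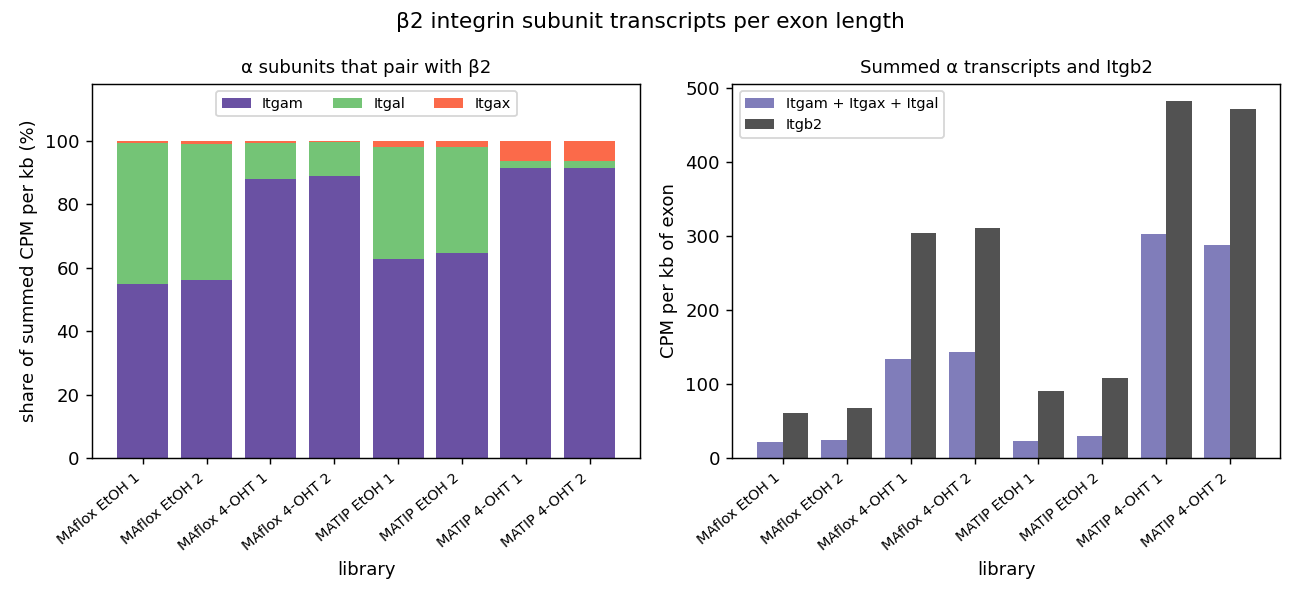
Left, share (%) of Itgam, Itgal and Itgax in their summed CPM per kb of exon in each library, as stacked bars; right, that sum and Itgb2 in CPM per kb, as paired bars. Itgam holds 55.5% of the sum in MAflox EtOH and 91.4% in MATIP 4-OHT libraries, where Itgax reaches 6.24%. The Itgam level depends on how reads in exons shared with Gm49368 were counted.

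Itga4 fell in both lines, while Itga5 fell in MAflox and rose in MATIP cells. Itga4 (CD49d; chromosome 2 from 79255426 to 79333123, plus strand) stood at 186 and 210.4 CPM in MAflox EtOH, 98.1 and 101 CPM in MAflox 4-OHT, 183 and 184 CPM in MATIP EtOH, and 77.1 and 68.9 CPM in MATIP 4-OHT libraries. Both 4-OHT groups lay below both EtOH groups. The summed level of 9 progenitor markers was 11026 to 11279 and 10522 to 10606 CPM in MAflox EtOH and 4-OHT libraries and 16571 to 16897 and 5149 to 5493 CPM in MATIP libraries, while the median log2 change over the 9 markers was −0.64 in MAflox and −1.58 in MATIP cells. Their part in the result was not tested. Itga4 fell in MAflox (−0.99 ± 0.07; adjusted p = 1.52e-10) and MATIP cells (−1.33 ± 0.07; adjusted p = 1.16e-12), and the fall was larger in MATIP cells by −0.33 ± 0.10 (adjusted p = 0.00513). That difference was −0.23 and did not pass (adjusted p = 0.0612) without MATIP 4-OHT replicate 2. With the trend on exon length and GC content removed, the fall was −0.60 in MAflox cells and the difference −0.70. Itga4 shares 1124 exon bases with Cerkl on the opposite strand, which stood at 1.72 to 3.34 CPM.

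Itga5 (the fibronectin receptor's α5 chain; chromosome 15 from 103344286 to 103366763, minus strand) stood at 47.0 and 49.9 CPM in MAflox EtOH, 32.4 and 28.2 CPM in MAflox 4-OHT, 53.3 and 55.0 CPM in MATIP EtOH, and 76.2 and 73.9 CPM in MATIP 4-OHT libraries. The MAflox 4-OHT libraries were the lowest and the MATIP 4-OHT libraries the highest, with no overlap between groups. It fell in MAflox cells (−0.68 ± 0.08; adjusted p = 2.05e-07) and rose in MATIP cells (0.47 ± 0.07; adjusted p = 9.46e-06), a difference of 1.15 ± 0.11 (adjusted p = 1.87e-08). Per kilobase of exon, the ratio of Itga5 to Itga4 was 0.695, 0.864 and 0.837 in MAflox EtOH, MAflox 4-OHT and MATIP EtOH, and 2.92 in MATIP 4-OHT libraries. Itga5 exceeded Itga4 on this scale in the MATIP 4-OHT group and lay below it in the other groups.

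Itgb1 (the common β1 chain; chromosome 8 from 128685654 to 128733200, plus strand) was the member that varied least. It stood at 307 and 329 CPM in MAflox EtOH, 304 and 309 CPM in MAflox 4-OHT, 308 and 325 CPM in MATIP EtOH, and 340.1 and 347 CPM in MATIP 4-OHT libraries. The lower 3 groups overlapped. The log2 change was −0.05 ± 0.06 in MAflox cells (95% interval −0.17 to 0.06; adjusted p = 0.41) and 0.12 ± 0.06 in MATIP cells (95% interval 0.00 to 0.24; adjusted p = 0.0597). The responses differed by 0.17 ± 0.08 (95% interval 0.01 to 0.34; adjusted p = 0.0642). These calls lay close to the threshold and changed with the analysis. The MATIP value passed in 8 of 16 alternatives: RLE factors (0.19, adjusted p = 0.00386), DESeq2 (0.19, adjusted p = 0.000675), no filter, a filter of 1 CPM, the line's own 4 libraries, and without MAflox 4-OHT replicate 1, MAflox 4-OHT replicate 2 or MATIP 4-OHT replicate 1. It was −0.01 with library totals alone. The difference passed in 6 of 15, namely RLE factors (0.25, adjusted p = 0.0101), library totals, DESeq2 (0.24, adjusted p = 0.00291), both filters and without MATIP 4-OHT replicate 1. The MAflox value was −0.23 with library totals alone (adjusted p = 0.0012).

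Itgb7 (the gut-homing β7 chain, chromosome 15 from 102215995 to 102231944, minus strand) was low in MATIP EtOH cells and high in MATIP 4-OHT cells. It stood at 42.3 and 50.6 CPM in MAflox EtOH, 40.6 and 30.3 CPM in MAflox 4-OHT, 5.91 and 8.94 CPM in MATIP EtOH, and 72.7 and 75.7 CPM in MATIP 4-OHT libraries. The MATIP EtOH libraries lay below all the others and the MATIP 4-OHT libraries above them. It rose in MATIP cells by 3.30 ± 0.15 (9.86-fold; adjusted p = 1.78e-13). In MAflox cells it fell by 0.39 ± 0.13 on the log2 scale (adjusted p = 0.0145). That MAflox call was lost in DESeq2 (adjusted p = 0.216), without MAflox EtOH replicate 2 (−0.25, adjusted p = 0.154) and without MAflox 4-OHT replicate 2 (−0.18, adjusted p = 0.338), and the value was −0.61 without MAflox 4-OHT replicate 1. The responses differed by 3.69 ± 0.20 (adjusted p = 1.43e-11). Per kilobase, Itgb1 exceeded Itgb7 by 4.67-fold and 6.01-fold in MAflox EtOH and 4-OHT and by 30.0-fold and 3.15-fold in MATIP EtOH and 4-OHT libraries.

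The αv chain and its partner β5 bind vitronectin and the bridging protein MFG-E8, through which macrophages take up dying cells. Itgav (chromosome 2 from 83724397 to 83806916, plus strand) stood at 38.9 and 42.3 CPM in MAflox EtOH, 38.5 and 35.4 CPM in MAflox 4-OHT, 60.9 and 69.3 CPM in MATIP EtOH, and 143 and 138 CPM in MATIP 4-OHT libraries. The MAflox groups lay close together without overlap, and both MATIP groups lay above them. It rose in MATIP cells by 1.10 ± 0.07 (2.15-fold; adjusted p = 4.46e-11), and its MAflox value was −0.14 ± 0.08 (95% interval −0.30 to 0.02; adjusted p = 0.125), or −0.31 with library totals alone (adjusted p = 0.00214). The responses differed by 1.24 ± 0.10 (adjusted p = 5.85e-09). Itgav shares 634 exon bases with Gm13684 on the opposite strand.

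Itgb5 (chromosome 16 from 33829665 to 33949338, plus strand) stood at 20.4 and 20.3 CPM in MAflox EtOH, 14.7 and 12.3 CPM in MAflox 4-OHT, 44.9 and 40.8 CPM in MATIP EtOH, and 56.3 and 59.2 CPM in MATIP 4-OHT libraries. Every MATIP library lay above every MAflox library. It fell in MAflox cells (−0.58 ± 0.09; adjusted p = 2.17e-05) and rose in MATIP cells (0.43 ± 0.08; adjusted p = 0.000133), a difference of 1.02 ± 0.13 (adjusted p = 1.1e-06). Per kilobase the ratio of Itgb5 to Itgav was 1.52, 1.11, 2.0 and 1.25 in the 4 groups in the order named. It rests on union exon lengths of 10744 bases for Itgav and 3553 for Itgb5, beside 7054 and 3282 in their longest transcripts. With the longest transcripts the ratio was not computed, so which of the 2 genes is higher is not settled.

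**Figure D3:**
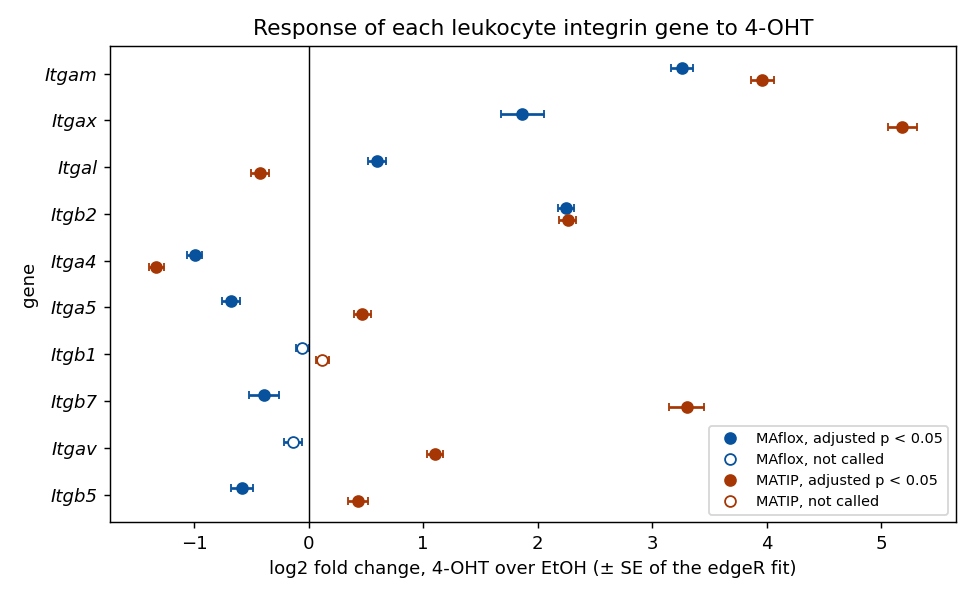
Log2 fold change with 4-OHT (x axis) of each of the 10 integrin genes in MAflox and MATIP cells, with bars of 1 SE of the edgeR fit, n = 2 libraries per group, filled where the adjusted p is under 0.05. Itgb2 has nearly the same value in both lines (2.25 and 2.26), while Itgal lies on the other side of 0 from Itga5, Itgb5 and Itgb7 in both lines.

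The lines were also compared within a treatment. These comparisons share their libraries with the responses above. In EtOH 6 of the 10 members differed between MATIP and MAflox cells, 5 higher and 1 lower, against 32% of all tested genes, 20.3% higher and 11.7% lower. Itgax (1.34 ± 0.20; adjusted p = 2.91e-05), Itgb5 (1.08 ± 0.09), Itgav (0.68 ± 0.07), Itgb2 (0.62 ± 0.07) and Itgam (0.44 ± 0.09; adjusted p = 0.00126) were higher in MATIP cells before any 4-OHT. The Itgam value was 0.24 without MATIP EtOH replicate 2 (adjusted p = 0.0342). Itgb7 was lower by −2.63 ± 0.15 (6.18-fold; adjusted p = 9.81e-11). Itgal (95% interval −0.27 to 0.07), Itga4 (−0.25 to 0.03), Itga5 (0.00 to 0.31) and Itgb1 (−0.12 to 0.11) did not pass.

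With 4-OHT all 10 members differed between the lines, 8 higher and 2 lower in MATIP cells, against 75.5% of all tested genes, 38.1% higher and 37.5% lower. Itgax was highest above MAflox at 4.66 ± 0.12 (adjusted p = 1.31e-16), followed by Itgb5 (2.09 ± 0.09) and Itgav (1.92 ± 0.08). Itga5 (1.31 ± 0.08), Itgam (1.14 ± 0.09), Itgb7 (1.06 ± 0.13) and Itgb2 (0.63 ± 0.07) were also higher. Itgb1 was higher by 0.17 ± 0.06 (adjusted p = 0.0117), and this call was lost without MAflox 4-OHT replicate 1 (adjusted p = 0.0564) or MATIP 4-OHT replicate 2 (adjusted p = 0.0778). Itgal (−1.12 ± 0.08; adjusted p = 2.49e-10) and Itga4 (−0.45 ± 0.07; adjusted p = 8.53e-06) were lower in MATIP cells.

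Per kilobase of exon the order of the 10 members changed with the group. The ranks use the union of exons, and ranks with the longest transcript as length were not computed. In MAflox EtOH Itgb1 ranked first at 78.0 ± 3.88 CPM per kb (SD, n = 2), above Itgb2 at 64.7 ± 4.08. Itgb2 ranked first in the other groups, at 307 ± 5.01 in MAflox 4-OHT, 99.2 ± 12.7 in MATIP EtOH and 477 ± 6.81 CPM per kb in MATIP 4-OHT. Itgam rose from rank 5 to rank 2 in MAflox cells and from rank 3 to rank 2 in MATIP cells. Itgax ranked 10 in the first 3 groups and 5 in MATIP 4-OHT, while Itga4 went from rank 4 to rank 10 in MATIP cells. Over the groups, the ratio of the highest to the lowest group mean was 93.2 for Itgax, 21.2 for Itgam, 9.99 for Itgb7 and 7.37 for Itgb2, and 1.12 for Itgb1.

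**Figure D4:**
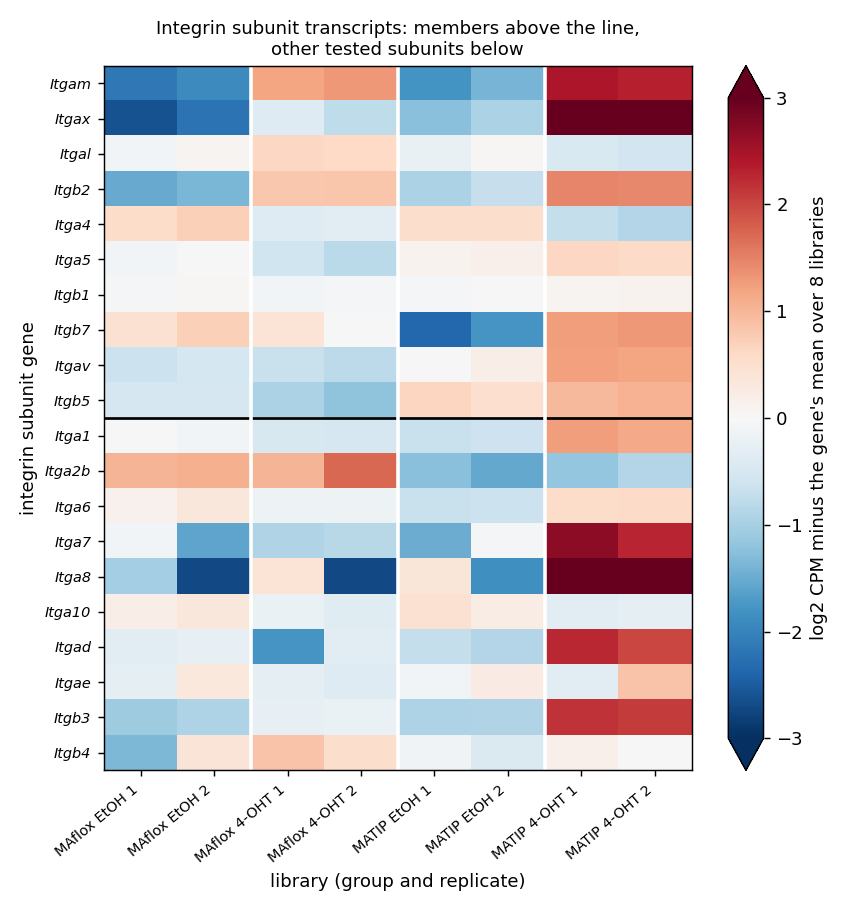
Log2 CPM (prior count 2) of the 10 integrin genes (above the line) and of the 10 other tested subunits (below it) in the 8 libraries, as a colour scale centred on the gene's mean, with values past the ends of the scale shown at its end colours. Itgam, Itgax and Itgb2 are highest in the MATIP 4-OHT libraries and lowest in the MAflox EtOH libraries, Itga4 is lowest in MATIP 4-OHT, and Itgb7 is lowest in MATIP EtOH.

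Likeness of pattern was measured over the 8 libraries as the root mean square difference of centred log2 CPM, so smaller is more alike, and is given as a description. Within the family the closest pair was Itgav and Itgb5 (0.336), partners in 1 receptor, then Itga5 and Itgav (0.412). Other partners ranged from Itga5 and Itgb1 (0.419) to Itga4 and Itgb7 (1.70), and Itgam and Itgb2 differed by 0.708. Among 9502 other genes, Itga5 lay closest to Pcnx (0.0275) and R3hdm2 (0.0653), Itgb1 to Dcaf10 (0.0369) and Oxr1 (0.0413), and Itga4 to Farsb (0.0707). Itgb2 lay closest to Tbc1d8 (0.0945) and Nedd9 (0.103), Itgav to Ero1lb (0.0778) and Mroh1 (0.0919), and Itgal to Sugt1 (0.0831) and Dgkg (0.0885). For Itgam they were Slc31a2 (0.163) and Hmox1 (0.191), for Itgax Slc15a3 (0.285) and Bcl6 (0.328), for Itgb5 Tmem215 (0.109), and for Itgb7 Fyn (0.361) and Large (0.421). The points share libraries and depth.

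Of 16 other integrin subunits 10 were tested. In MAflox cells 3 passed, against 65.2% of all tested genes: 1 rose, Itgb3 (0.77 ± 0.11), and 2 fell, Itga1 (−0.44 ± 0.10) and Itga6 (−0.40 ± 0.07). In MATIP cells 6 rose and 4 did not pass, against 76.1% of all tested genes called and 37.5% higher. Those that rose were Itga8 (4.50 ± 0.75), Itga7 (3.39 ± 0.73), Itgad (3.10 ± 0.51), Itgb3 (3.06 ± 0.10), Itga1 (1.83 ± 0.10) and Itga6 (1.21 ± 0.07). Itga7 and Itga8 rest on few counts. Itga7 passed the filter on low counts only through the MATIP 4-OHT libraries, where it was high. Its rise and its difference between the lines are therefore description only, although the counts of genes include them. The MATIP EtOH libraries held 2 and 11 counts of Itga7 and 14 and 2 of Itga8, and the MATIP 4-OHT libraries 62 and 56 of Itga7 and 150 and 184 of Itga8. Without MATIP EtOH replicate 1 or 2 the Itga7 value was 2.78 or 4.79, and that of Itga8 6.63 or 3.54, in leave-outs chosen after seeing the data. Itga6 encodes the laminin receptor's α6 chain and stood at 46.8 CPM in MATIP EtOH and 109 CPM in MATIP 4-OHT libraries. Itgb3, whose β3 chain also pairs with αv, stood at 6.36 and 53.2 CPM, and Itga1 at 8.83 and 31.5 CPM in these groups. Itgad, encoding the αD chain that pairs with β2, stayed low at 0.286 and 2.46 CPM. Itgae, the αE partner of β7, stood at 0.286 to 0.497 CPM over the groups and did not pass. Itga2b, Itga10 and Itgb4 did not pass in either line, with values of 0.49 ± 0.66, −0.68 ± 0.31 (adjusted p = 0.0564) and 0.40 ± 0.68 in MATIP cells. Itga1, Itga7, Itga8, Itga10, Itgad and Itgb4 share exon bases with other gene models, so part of their counts is uncertain. The responses differed between the lines for 5 of the 10, against 61.9% of all tested genes, each larger in MATIP cells: Itgad (3.76 ± 0.76), Itga7 (3.65 ± 1.25), Itgb3 (2.29 ± 0.15), Itga1 (2.27 ± 0.15) and Itga6 (1.61 ± 0.10). The Itga7 call was lost without MAflox EtOH replicate 1 (2.23, adjusted p = 0.332), MATIP EtOH replicate 1 (3.03, adjusted p = 0.0502) or MATIP 4-OHT replicate 1 (3.48, adjusted p = 0.0675), and its value was 4.41 without MAflox EtOH replicate 2 and 5.04 without MATIP EtOH replicate 2. Without MAflox 4-OHT replicate 1 or 2 the Itgad value was 3.16 or 4.83.

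Integrin ligands are matrix proteins and cell surface proteins that these receptors bind, and some are made by the cells themselves. Of 24 ligand genes 18 were tested. The counts of this and the next lists are read against 65.2% of all tested genes called in MAflox cells (33.1% higher, 32.1% lower) and 76.1% in MATIP cells (37.5% higher, 38.6% lower). In MAflox cells 11 rose, 3 fell and 4 did not pass (median log2 0.79). In MATIP cells 13 rose, 3 fell and 2 did not pass (median 2.53). Edil3 had 0 counts in MATIP EtOH and in both MAflox groups. It passed the filter on low counts only through its 35 counts in MATIP 4-OHT, so its MATIP value is description only. The ligand counts here and below include it. Both medians stay at these values with Edil3 set to 3 counts over a group. Spp1 (osteopontin, bound by α4 and αv integrins) rose by 3.64 ± 0.08 in MAflox and 6.42 ± 0.09 in MATIP cells. C3, whose fragment iC3b is the ligand of Mac-1, rose by 2.19 ± 0.07 and 3.06 ± 0.07. F11r (the junctional protein JAM-A) rose by 2.19 ± 0.18 and 3.61 ± 0.21, and Vwf by 1.45 ± 0.22 and 6.21 ± 0.15. The genes that fell were the same 3 in both lines, named after their values were seen: Icam2, a ligand of LFA-1 (−0.28 ± 0.08 and −1.02 ± 0.08), Emilin1 (−0.90 ± 0.08 and −1.36 ± 0.08) and Tgfb1 (−0.43 ± 0.06 and −0.16 ± 0.06).

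The list of inside-out activation was not sorted by whether a gene promotes or restrains activation. Its counts and medians therefore give no direction of activation. Among its 21 tested genes (23 in the list), 15 rose, 3 fell and 3 did not pass in MAflox cells (median 0.46, with 65.2% of all genes called). In MATIP cells 12 rose, 5 fell and 4 did not pass (median 0.28; 76.1% of all genes called). Rassf5, the RAP1 effector RAPL, rose by 1.24 ± 0.07 and 1.38 ± 0.07. Cytip, a binding partner of cytohesin, rose by 1.80 ± 0.07 in MAflox and 0.70 ± 0.07 in MATIP cells, a difference of −1.09 ± 0.09. Fyb (ADAP) rose by 1.35 ± 0.15 and 2.73 ± 0.14, and Flna, the filamin that binds β tails, by 0.48 ± 0.08 and 1.68 ± 0.08. Rapgef1, an exchange factor for RAP1, fell by 1.34 ± 0.07 and 0.46 ± 0.07 on the log2 scale. The other genes that fell are named after their values were seen. Tln1, encoding talin, changed by −0.82 ± 0.07 in MAflox and 0.43 ± 0.07 in MATIP cells, a difference of 1.25 ± 0.10 (adjusted p = 1.52e-09). Fermt3, encoding kindlin-3, changed the other way, by 0.43 ± 0.05 and −0.68 ± 0.05, a difference of −1.11 ± 0.08 (adjusted p = 3.81e-10). Dock2 changed by −0.29 ± 0.06 and 0.64 ± 0.06. Dok1 changed by 0.78 ± 0.09 and −0.60 ± 0.09, Itgb1bp1 by 0.45 ± 0.09 and −0.42 ± 0.09, and Rap1a by 0.74 ± 0.05 and −0.16 ± 0.06.

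Among 24 tested genes of adhesion signalling (25 in the list), 14 rose, 6 fell and 4 did not pass in MAflox cells (median 0.57; 65.2% of all genes called). In MATIP cells 17 rose, 3 fell and 4 did not pass (median 1.24; 76.1% of all genes called). Fgr, a Src family kinase of myeloid cells that acts below β2 integrins, rose by 5.99 ± 0.16 in MAflox cells and by 5.67 ± 0.14 in MATIP cells, a difference of −0.32 ± 0.27 (adjusted p = 0.313). Vcl (vinculin) rose by 1.06 ± 0.08 and 2.0 ± 0.08, Lims1 (PINCH-1) by 0.69 ± 0.06 and 1.39 ± 0.06, and Vasp, which lengthens actin filaments, by 1.16 ± 0.05 and 1.19 ± 0.05. The 3 that fell in MATIP cells, named after their values were seen, were Ilk (1.04 ± 0.07 in MAflox, −0.20 ± 0.07 in MATIP cells), Parvg (−0.03 ± 0.05 and −0.93 ± 0.05) and Rsu1 (0.48 ± 0.06 and −0.51 ± 0.06). Their products bind each other or PINCH-1 in the complex that links integrin tails to actin. The responses of the ligand, activation and adhesion lists differed between the lines for 12, 16 and 20 genes, with 10, 7 and 15 of them larger in MATIP cells and medians of 1.15, −0.17 and 0.47. Over all tested genes 61.9% differed, 28.3% larger and 33.6% smaller, with a median of −0.03.

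**Figure D5:**
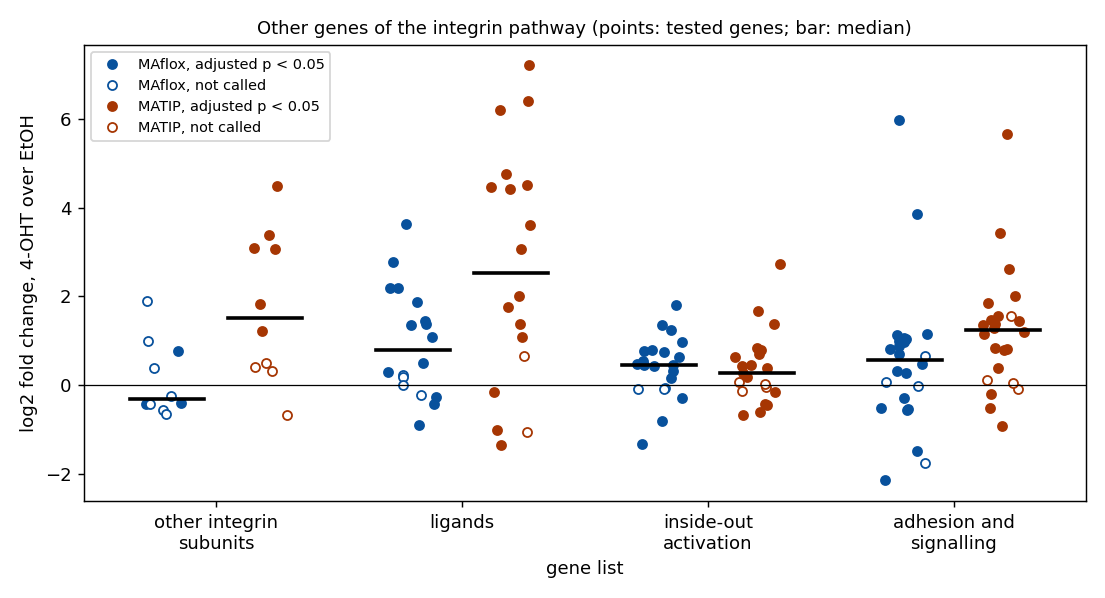
Log2 fold change with 4-OHT (y axis) of the tested genes of 4 lists in MAflox and MATIP cells, 1 point per gene, filled where the adjusted p is under 0.05, with a bar at the list's median. The ligand median is 0.79 in MAflox and 2.53 in MATIP cells, and the activation medians lie at 0.46 and 0.28.

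The authors' deposited table of log2 fold changes gives the same sign as the values here for 10 of 10 members in each line. At 0.05, 7 members pass in MAflox cells and 10 in MATIP cells in the authors' deposited table. Itgb7 in MAflox cells (adjusted p = 0.186) does not pass there, and Itgb1 in MATIP cells does (log2 0.16, adjusted p = 0.0108). The share of all genes that pass there was not computed. In the edgeR fit 65.2% of all tested genes passed in MAflox and 76.1% in MATIP cells. The largest gap to the authors' deposited table was 0.145, for Itgax in MAflox cells.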

How the data were processed

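Total RNA of 8 libraries in 4 groups was sequenced, and groups and replicate numbers come from the sample titles. The authors deposited whole-number read counts per gene symbol, not normalized. Per the submitters' processing notes, Trimmomatic 0.38.0, HISAT2 2.1.0, featureCounts 1.6.4, DESeq2 and the build mm10 were used. The strand setting, the treatment of multi-mapped reads and the gene annotation: not given in the sources used here. Reads of overlapping or antisense genes can therefore not be told apart. The authors also deposited log2 fold changes with adjusted p-values, per the file headers of a second table.

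Of 24421 symbols 17831 had a count and 13722 passed the filter (filterByExpr, at least 10 counts in a group's libraries and 15 in all). All 8 libraries were fitted with TMM scaling in edgeR 4.0.16 under R 4.3.3 (quasi-likelihood), with 1 coefficient per group (4 residual degrees of freedom, prior 14.3, common biological coefficient of variation 5.98%). P-values were adjusted by Benjamini-Hochberg over all tested genes of a contrast and called at 0.05. SEs were obtained by dividing the absolute log2 fold change by the root of F. Intervals are 95%. CPM uses TMM library sizes, and CPM per kb the union of GENCODE M21 exons. No replicate pair was a duplicate: a chi-square of their counts per degree of freedom was 7.33 to 13.6. The fit was tested on simulated data.

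The members and gene lists were chosen with earlier results of these data known. Named beside the 10 members are Kat5, each tested integrin subunit, the 3 called genes with the smallest p per pathway list and line, and the 2 genes nearest each member in pattern (at least 5 CPM); a few genes that this rule names are not reported here. Lists were other subunits, ligands, activation and adhesion signalling, and markers of progenitors, neutrophils, macrophages, dendritic cells, eosinophils, mast cells and basophils, megakaryocytes and erythroid cells, lymphoid cells and stroma. Alternatives were RLE factors, library totals, DESeq2 1.42.0, no filter or 1 CPM in 2 samples, a replicate block, leaving out each library (for the other subunits chosen after seeing the data), the line's own libraries, removal of a length and GC trend, and the longest transcript as length. The count file's 23 empty columns were not used.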

Additional observations from a re-analysis of the deposited data

Results flagged for a closer look

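The response to 4-OHT was tested for a difference between the lines, as MATIP minus MAflox log2 fold change in the edgeR fit, and 8 of the 10 members passed, against 61.9% of all tested genes. The difference was 0.70 for Itgam, 3.32 for Itgax, 1.15 for Itga5, 3.69 for Itgb7, 1.24 for Itgav and 1.02 for Itgb5, each larger in MATIP cells, and −1.02 for Itgal and −0.33 for Itga4. For Itgb7 the log2 line difference, MATIP minus MAflox, was −2.63 in EtOH and 1.06 with 4-OHT, so the larger part lay in the EtOH groups. Groups of 2 libraries are too small for a test of single outlying libraries.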

How the results depend on the processing

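Over all alternatives, 740 member values kept direction and side of the threshold or, where no test was run, moved by less than their error. A further 16 gained a call, 6 lost one, 6 changed sign and 12 had no test and moved by over their error. Sign changes of uncalled members on removal of the length and GC trend were not counted. All 6 that changed sign had not been called: Itgb1 in MATIP cells was −0.015 with library totals alone, the Itgb2 response difference ranged from −0.11 to 0.14 with 1 library left out (below 0 without MAflox EtOH replicate 2 or MATIP EtOH replicate 1), and the EtOH line difference from −0.057 to 0.044 for Itgb1 (above 0 without these libraries) and from −0.23 to 0.018 for Itgal (above 0 without the latter). Leaving out 1 library left 1 to 2 members lower in the difference of responses, 1 without MATIP 4-OHT replicate 2; a lone library left in a group is assumed to vary like the others. With the longest transcript as length, Itgb1 stood at 83.4 CPM per kb in MAflox EtOH, Itgb2 at 316 in MAflox 4-OHT and 489.9 in MATIP 4-OHT, and the Itgam share at 51.6%, 86.8%, 59.95% and 90.4%. Deviations of same-numbered libraries from their group means correlated between groups at −0.0391 to 0.0339. With 2 libraries per group these values cannot decide whether same-numbered libraries share a culture or clone. The replicate block called 8856 genes in MAflox and 10324 in MATIP cells, or 8641 and 10152 within line, and changed none of 80 member values in call or direction. Depth limits Itgax in MAflox cells most, at 0.817 to 3.93 CPM.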

Other observations

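Itgb2l encodes pactolus, a protein of neutrophils and their precursors that resembles β2, and lies on chromosome 16 from 96422288 to 96443619 (minus strand). It was picked out after its values were seen. It stood at 1.61 and 1.54 CPM in MAflox EtOH, 334 and 343 CPM in MAflox 4-OHT, 4.91 and 6.21 CPM in MATIP EtOH, and 78.0 and 79.1 CPM in MATIP 4-OHT libraries. Unlike those of Itgam and Itgb2, its MAflox 4-OHT libraries lay above the MATIP 4-OHT libraries. The log2 fold change was 7.75 ± 0.10 in MAflox and 3.81 ± 0.08 in MATIP cells, and these responses differed by −3.94 ± 0.14 (edgeR adjusted p = 1.03e-13), while the response of Itgb2 differed by 0.02 ± 0.10. Summed neutrophil markers stood at 49088 to 52496 CPM in MAflox 4-OHT and 33612 to 37165 CPM in MATIP 4-OHT libraries, and their part in the Itgb2l values was not tested.

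Summed markers of eosinophils, mast cells and basophils, megakaryocytes and erythroid cells, lymphoid cells and stroma lay below those of neutrophils and of macrophages in every group. Summed progenitor markers lay above both in the EtOH groups. Those of eosinophils and of megakaryocytes and erythroid cells rose with 4-OHT in both lines, and their part in the integrin results was not tested. Summed eosinophil markers were 7.74 to 8.93 and 52.3 to 79.2 CPM in MAflox EtOH and 4-OHT and 4.13 to 4.19 and 35.4 to 37.8 CPM in MATIP libraries. These sums do not stand for each marker. Il5ra had no counts and Epx 4 counts in MATIP 4-OHT, and Ccr3 had 1 count in MAflox 4-OHT. Mast cell and basophil markers summed to 41.7 to 41.8 and 39.2 to 39.9 CPM in MAflox cells and 9.34 to 9.70 and 4.28 to 4.95 CPM in MATIP cells. Megakaryocyte and erythroid markers summed to 2.68, 8.54 to 10.9, 1.61 to 2.08 and 23.7 to 24.3 CPM in the 4 groups in the same order. Hba-a1 of that list had no counts in any group. Lymphoid markers were at 1.16 CPM or less in every library, and stromal markers between 74.9 and 93.1 CPM.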
